A study of Rattus norvegicus with 18 samples.

Results

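The core circadian clock genes were examined in rat testis as the set of transcripts whose RefSeq identifiers map to the rat symbols Bmal1, Clock, Per1, Per2, Per3, Cry1, Cry2, Nr1d1, Nr1d2 and Dbp. Of these 10 genes 9 were found, in 10 of the 7016 transcript rows. Nr1d1 had 2 rows and Bmal1 is not analysed here. RNA came from whole testes of Wistar rats aged 8 weeks, with 3 libraries of the chronic sleep restriction (CSR) group and 3 of the control group. The labels do not give the method or length of the restriction, the hour at which the testes were taken, or whether the libraries are from separate animals. P-values here therefore reflect only how much these 6 libraries vary, which may be technical variation. The submitters' codes of control libraries 1 and 2 differ only in the last digit, and if both came from 1 animal the control group holds 2 animals. The values are FPKM, sequenced fragments divided by transcript length and by the total mapped in the library, so levels can be compared between genes of a library.

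The clock is a feedback loop of transcription. CLOCK and BMAL1 pair, bind E-box sequences and switch on the Per, Cry, Nr1d and Dbp genes. PER and CRY proteins then enter the nucleus and hold the pair back, the nuclear receptors NR1D1 and NR1D2 (REV-ERBs) repress Bmal1, and DBP activates genes through D-boxes. In most tissues these transcripts rise and fall over the day. In mouse testis they are known to vary little over the day, and Per1 is known there for its expression in developing spermatids.

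The promoter windows of 4 genes are printed, all among the genes found here. They are those of the clock genes with a match to a clock motif and that of a partner gene with 3 matches. The windows are the 250 bases before the gene start in RefSeq (build GRCr8), 5′ to 3′ on the gene's strand, and capitals mark the matches. Per2, Nr1d1 and Cry2 are clock genes, and Ciart encodes a repressor of CLOCK and BMAL1 whose values are given among the partner genes.
Per2 (chr9:99496994-99497243, minus strand): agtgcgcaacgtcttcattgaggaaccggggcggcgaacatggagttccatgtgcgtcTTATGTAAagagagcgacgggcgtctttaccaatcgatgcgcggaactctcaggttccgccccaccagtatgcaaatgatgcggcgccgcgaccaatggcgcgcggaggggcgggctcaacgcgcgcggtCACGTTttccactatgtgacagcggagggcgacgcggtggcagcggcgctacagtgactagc
Nr1d1 (chr10:84231813-84232062, minus strand): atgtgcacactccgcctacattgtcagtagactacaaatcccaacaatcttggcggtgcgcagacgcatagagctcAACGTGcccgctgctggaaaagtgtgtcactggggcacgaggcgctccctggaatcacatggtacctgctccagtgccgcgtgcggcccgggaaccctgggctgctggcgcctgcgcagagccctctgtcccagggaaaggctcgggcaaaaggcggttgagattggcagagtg
Cry2 (chr3:98860438-98860687, minus strand): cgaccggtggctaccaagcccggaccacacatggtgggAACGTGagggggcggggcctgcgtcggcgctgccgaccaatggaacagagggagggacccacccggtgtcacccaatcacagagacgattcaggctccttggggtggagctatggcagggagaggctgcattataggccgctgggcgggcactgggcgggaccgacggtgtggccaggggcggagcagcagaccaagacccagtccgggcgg
Ciart (chr2:186112247-186112496, minus strand): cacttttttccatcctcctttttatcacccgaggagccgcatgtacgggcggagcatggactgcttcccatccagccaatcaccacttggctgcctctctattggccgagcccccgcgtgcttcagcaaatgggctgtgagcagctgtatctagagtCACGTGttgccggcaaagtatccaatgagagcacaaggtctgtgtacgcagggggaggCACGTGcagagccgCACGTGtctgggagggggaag

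Windows were found for 8 of the 9 clock genes, all but Cry1. Both strands were searched for the E-box CACGTG, the E'-box CACGTT, the D-box TTATGTAA, the core TAGGTCA of the element bound by ROR and NR1D receptors, and the cyclic AMP response element TGACGTCA. The E-box and the cyclic AMP element read the same on both strands, and no match overlapped another. An E'-box was found in 3 of the 8 windows, those of Per2, Nr1d1 and Cry2, and in 4.14% of 27457 RefSeq promoter windows. In Nr1d1 and Cry2 it lies on the opposite strand and is printed as AACGTG. A D-box was found in the Per2 window, and in 0.816% of all windows. The E-box (5.80% of all windows), the receptor element core (2.26%) and the cyclic AMP element (1.70%) had no match in the 8 windows, which says only that these letters are not there. The Ciart window holds 3 E-boxes, a number that 16 of 27457 windows reach or pass. Among 28 windows of partner genes 3 hold an E-box, those of Ciart, Siah2 and Gsk3b, and 1 holds an E'-box, that of Ezh2.

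Among the spermatid markers, control libraries 1 and 2 stood farthest apart from the other 4 libraries in 3 transcripts. Prm1, a protamine that packs sperm DNA, was read at 3029, 2572 and 968 FPKM in CSR and at 0.0934, 0.0981 and 877 FPKM in control. Prm2, the other protamine, was read at 360, 316 and 145 FPKM in CSR and at 0.750, 0.407 and 328 FPKM in control, and Izumo1, a sperm protein of gamete fusion, at 26.8, 28.1 and 32.2 FPKM in CSR and 1.06, 0.482 and 30.7 FPKM in control. Tnp2, a transition protein of the same cells, was read at 4111, 4329 and 3926 FPKM in CSR and 2668, 3186 and 3816 FPKM in control. Its gap was smaller, though control libraries 1 and 2 were its lowest. In Oaz3, Tex36 and Smcp, among other spermatid markers, the same 2 libraries were lowest. Oaz3 was read at 4528, 4287 and 4210 FPKM in CSR and 2148, 2894 and 4374 FPKM in control. Catsper2, Cst8, Zpbp and Spaca1 instead were highest in these 2 libraries. Over all tested transcripts control library 3 had correlations of 0.921, 0.9165 and 0.911 with CSR libraries 1, 2 and 3. Its correlation was 0.904 with control library 1 and 0.913 with control library 2, the latter above that with CSR library 3. A fit of the CSR libraries against control library 3 alone was therefore added after the data were seen, in which the lone control is assumed to vary like the CSR libraries. It tested 4 clock rows (Per1, Cry2, Cry1 and Nr1d1 NM_001113422) and called 0 of them.

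None of the clock genes was called different between CSR and control testes. Each of the 9 genes had 1 row that passed the filter for testing (1 FPKM or more in 3 or more libraries), and all 9 rows had an adjusted p of at least 0.405 (limma on log2(FPKM + 1), Benjamini-Hochberg over 5657 transcripts, threshold 0.05). The same test called 25 of 5657 transcripts, 0.442%, so no call among 9 is near that background. At an unadjusted p under 0.05 there were 0 clock rows of 9, against 13.2% of all transcripts. Log2 fold changes, on the log2(FPKM + 1) scale and CSR minus control throughout, were positive for 4 rows and negative for 5, with a median of -0.31, against a median of -0.06 over all transcripts tested. The count of called transcripts over the whole table depended on single libraries: it was 19, 9 and 7 without CSR library 1, 2 and 3, and 8, 2 and 238 without control library 1, 2 and 3. The count of called clock genes was 0 in each of these.

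**Figure D1:**
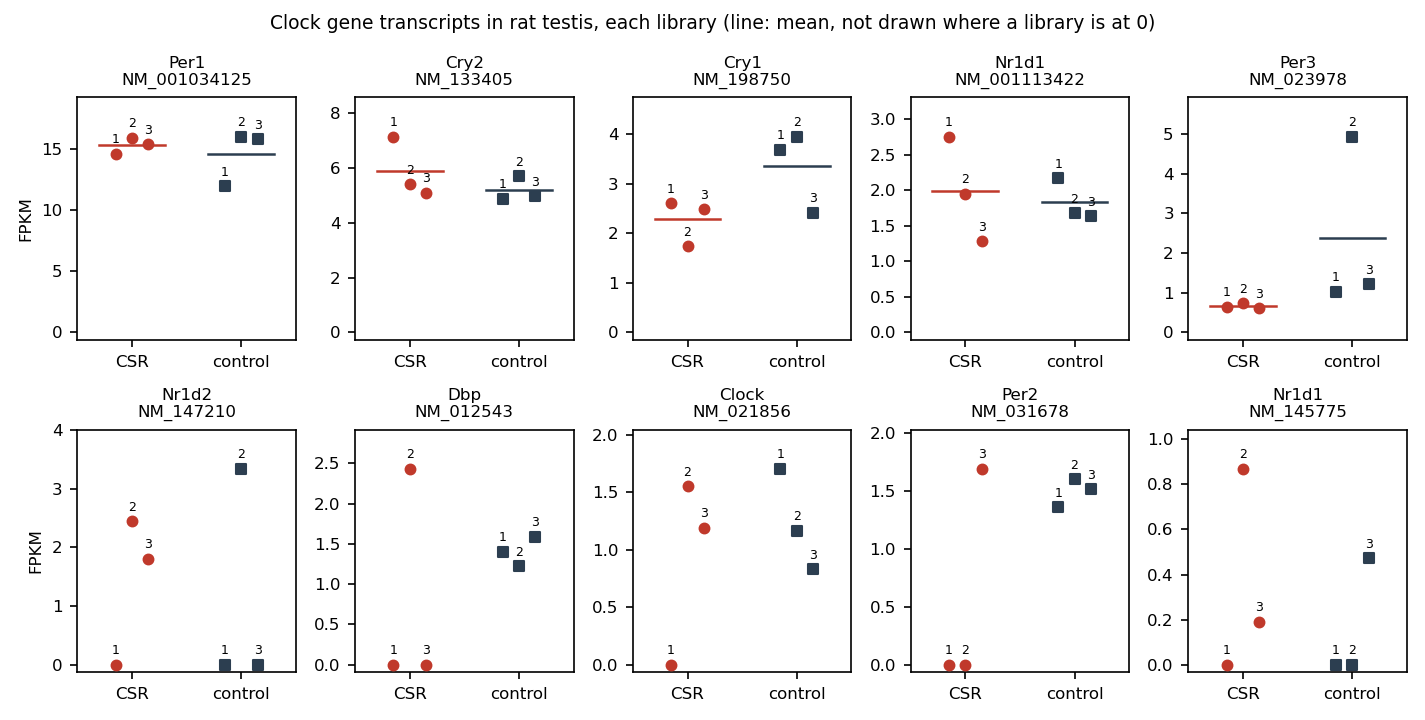
FPKM (y axis) of the 10 clock gene rows in each CSR library (red circles) and control library (dark squares), with library numbers beside the points and lines for group means where no library is at 0. Per1 lies between 12.0 and 16.0 FPKM in all 6 libraries, whereas the lower row contains values of 0 in at least 1 CSR library of every panel.

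Among the clock genes the highest levels were those of repressors. Per1 had the highest mean of the clock genes, 14.9 ± 1.56 FPKM over the 6 libraries (SD), above 77.2% of the transcripts in the table. Cry2 followed with 5.54 ± 0.847 FPKM and Cry1 with 2.82 ± 0.839 FPKM. In each of the 6 libraries Per1 was above Cry2 and Cry2 above Cry1, and their ranges did not overlap. Below Cry1 every pair of neighbours in the order overlapped: Nr1d1 (transcript NM_001113422) had a mean of 1.91 FPKM, Per3 1.53, Nr1d2 1.27, Dbp 1.11, Clock 1.07 and Per2 1.03 FPKM. The second Nr1d1 transcript, NM_145775, had a mean of 0.256 FPKM, did not pass the filter and was not tested.

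**Figure D2:**
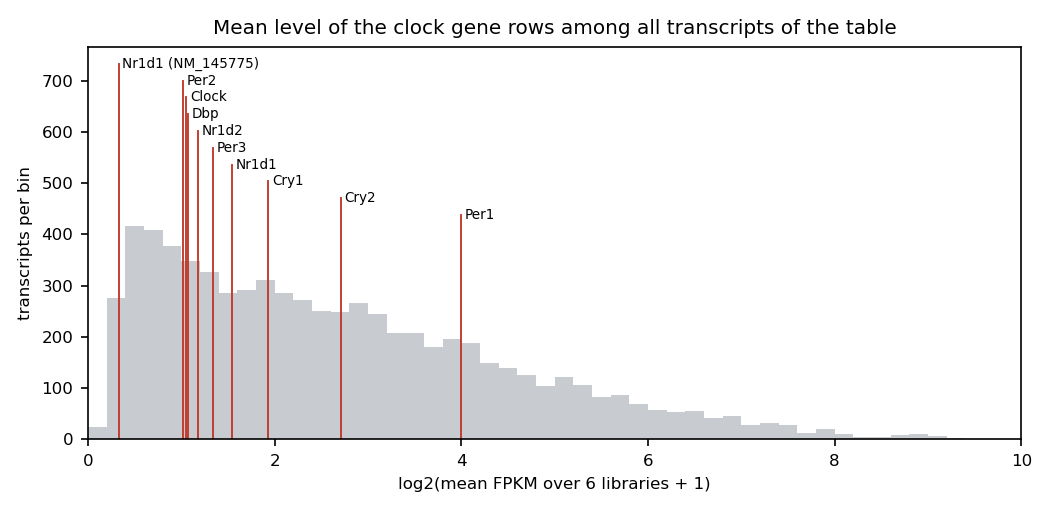
Distribution of log2(mean FPKM over the 6 libraries + 1) over the 7016 transcript rows (grey, rows per bin), with red lines at the clock gene rows. Per1 lies above 77.2% of all rows and Cry2 above 56.9%, and Per2, Clock and Dbp lie close together at the 21.8 to 23.4 percentile.

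Clock, the activator of the loop that was measured, was read at 0, 1.55 and 1.19 FPKM in CSR libraries 1 to 3, against 1.70, 1.17 and 0.827 FPKM in control libraries 1 to 3. The groups overlapped, and CSR library 1 alone was listed at 0. The log2 fold change was -0.31 (standard error 0.42, adjusted p 0.698 by limma). Its sign was positive under quantile normalization, at 0.17, and without CSR library 1, at 0.10.

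Per1, whose protein is a repressor of the loop, was read at 14.6, 15.9 and 15.4 FPKM in CSR and at 12.0, 16.0 and 15.8 FPKM in control. Control library 1 was the lowest, and the other 5 libraries lay between 14.6 and 16.0 FPKM. Its log2 fold change was 0.08 (standard error 0.14, adjusted p 0.775 by limma), with a 95% interval of -0.26 to 0.41, which on the FPKM + 1 scale runs from 0.835-fold to 1.33-fold. This was the narrowest interval among the clock genes. The sign was negative without control library 1, at -0.052, against control library 3 alone, at -0.042, and with table sums made equal, at -0.026.

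Per2, the second period gene, was listed at 0 in CSR libraries 1 and 2 and read 1.69 FPKM in CSR library 3, against 1.36, 1.60 and 1.52 FPKM in control. The single CSR value above 0 was thus the highest of the 6, and the groups overlapped. The log2 fold change was -0.84 (standard error 0.44, adjusted p 0.405 by limma). Its size depended on how values of 0 are treated, and was -2.60 with a pseudocount of 0.1 (adjusted p 0.411), and -1.32 without CSR library 3.

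Per3, the third period gene, was read at 0.642, 0.737 and 0.615 FPKM in CSR, against 1.02, 4.94 and 1.21 FPKM in control. It was the one clock gene whose groups did not overlap, 1 of 9 rows, and 12.6% of all transcripts tested had every CSR value below every control value. Per3 passed the filter through its control libraries alone. Control library 2 stood above the other 5 libraries, none of which exceeded 1.21 FPKM. For Per3 the log2 fold change was -0.84 (standard error 0.45, 95% interval -1.93 to 0.25, adjusted p 0.408 by limma).

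Cry1, a cryptochrome that represses CLOCK and BMAL1, was read at 2.61, 1.74 and 2.48 FPKM in CSR and at 3.69, 3.95 and 2.42 FPKM in control. Control libraries 1 and 2 lay above all CSR libraries, and control library 3 lay within the CSR range. For Cry1 the log2 fold change was -0.40 (standard error 0.23, 95% interval -0.95 to 0.15, adjusted p 0.422 by limma). Without control library 3 it was -0.57 and the adjusted p was 0.201, and against control library 3 alone it was -0.07. The 2 control libraries with high Cry1 are those with Prm1, Prm2 and Izumo1 near 0, and the part of this split in the Cry1 values was not tested.

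Cry2, the other cryptochrome, was read at 7.15, 5.42 and 5.09 FPKM in CSR and at 4.89, 5.69 and 4.97 FPKM in control. CSR library 1 was the highest and the other 5 libraries lay between 4.89 and 5.69 FPKM. For Cry2 the log2 fold change was 0.15 (standard error 0.17, 95% interval -0.26 to 0.55, adjusted p 0.649 by limma). The ratio of Cry2 to Cry1 within a library, which no scaling between libraries can alter, was 2.74, 3.12 and 2.05 in CSR and 1.32, 1.44 and 2.06 in control. The 2 groups overlapped in this ratio only through CSR library 3 and control library 3, which had nearly the same ratio, so the lower control ratios are again those of control libraries 1 and 2.

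The REV-ERB receptors had low levels. Nr1d1 (NM_001113422) was read at 2.75, 1.95 and 1.28 FPKM in CSR and at 2.17, 1.68 and 1.64 FPKM in control, and the CSR libraries spanned the control range on both sides. Its log2 fold change was 0.06 (standard error 0.25, adjusted p 0.904 by limma), with a negative sign without CSR library 1, at -0.12, and with table sums made equal, at -0.015. The second transcript, NM_145775, was read at 0, 0.869 and 0.191 FPKM in CSR and at 0, 0 and 0.473 FPKM in control. Nr1d2 was read at 0, 2.45 and 1.81 FPKM in CSR and at 0, 3.34 and 0 FPKM in control. Each group thus held both values of 0 and values above 1.8 FPKM, and the 95% interval of its log2 fold change, -1.45 to 2.22, was the widest of the clock genes (adjusted p 0.791 by limma).

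Dbp, the output factor that acts on D-boxes, was listed at 0 in CSR libraries 1 and 3 and read 2.43 FPKM in CSR library 2, against 1.40, 1.22 and 1.59 FPKM in control. As with Per2, the CSR library above 0 was the highest of the 6. The log2 fold change was -0.67 (standard error 0.52, adjusted p 0.524 by limma), and -2.35 with a pseudocount of 0.1 (adjusted p 0.453). It was -1.26 without CSR library 2, and -0.37 without CSR library 1 or CSR library 3.

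Values of 0 were more frequent in CSR libraries over the table as a whole. Among the 937 rows with a mean of 1 to 2 FPKM, 22.5% of the CSR values and 3.27% of the control values were at 0. The 6 clock rows in that band (Nr1d1 NM_001113422, Per3, Nr1d2, Dbp, Clock and Per2) had 6 of 18 CSR values and 2 of 18 control values at 0. CSR library 1 held 4 of these, in Clock, Per2, Nr1d2 and Dbp, and the other 2 CSR libraries held 1 each. An exact 0 in FPKM can be a failed estimate, and the part of these zeros in the lower values of Per2, Dbp and Clock in CSR was not tested.

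**Figure D3:**
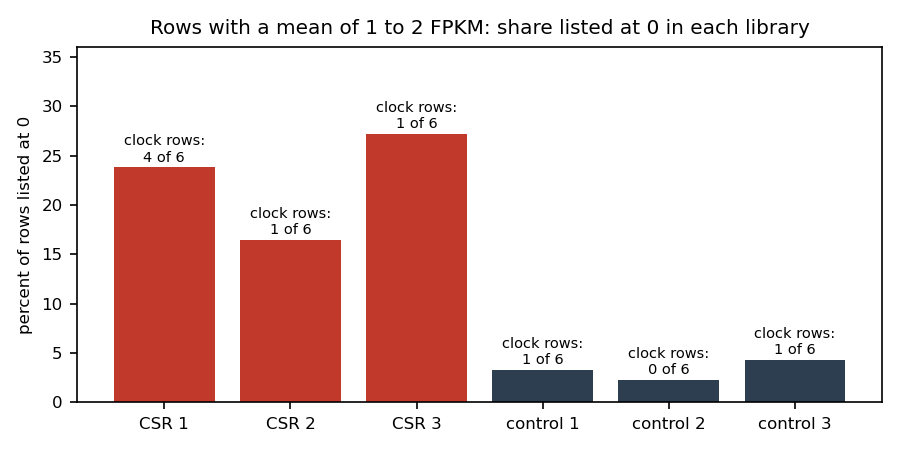
Percent of the 937 rows with a mean of 1 to 2 FPKM that were listed at 0, per library, with the number of the 6 clock rows at 0 above each bar (CSR red, control dark). The share lies between 16.4 and 27.2% in CSR libraries and between 2.24 and 4.27% in control libraries.

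Correlations between clock genes over the libraries were of both signs. Among the 36 pairs of tested clock rows, Pearson correlations of log2(FPKM + 1) over the 6 libraries ran from -0.85 (Cry2 and Clock) to 0.68 (Cry2 and Nr1d1), with a median of 0.02. These points share libraries and groups, and the lowest rests on CSR library 1, where Cry2 was highest and Clock was at 0. Correlations with Clock, Per2, Dbp or Nr1d2 depend on which libraries were listed at 0. So few libraries cannot show whether the clock genes vary together. Transcripts most like a clock gene were picked for the highest correlation over the 6 libraries, so a shared pattern follows from the choice. The transcripts most like Per1 over the 6 libraries were Hdac1l (correlation 0.996), Mesd (0.989), a chaperone of lipoprotein receptors, and Herpud1 (0.988), a gene of endoplasmic reticulum stress, and all 3 shared its low value in control library 1. Those most like Cry2 were Fbxo43 (0.971), an inhibitor of the anaphase-promoting complex, Cimap1b (0.959) and Eif4e (0.959), the cap-binding factor of translation, all highest in CSR library 1. Those most like Cry1 were Amd1 (0.999), an enzyme of polyamine synthesis, Arf4 (0.995), a small GTPase of vesicle traffic, and Bcl10 (0.994), a signalling adaptor, all lower in control library 3 than in control libraries 1 and 2.

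Partner genes that act on the clock proteins or share their targets were followed in a list of 68 genes, of which 35 were found in 40 rows and 35 rows of 31 genes were tested. None was called by limma (lowest adjusted p 0.185). At an unadjusted p under 0.05 there were 5 of 35 rows, 14.3%, against 13.2% of all transcripts. Groups did not overlap in 8 of 35 rows, 22.9%, against 21.5% of all transcripts, with all CSR values above in 3 rows (8.96% of all transcripts) and below in 5 rows (12.6%). Log2 fold changes were positive for 10 rows and negative for 25, with a median of -0.16. By role, 0 of 5 phosphatase rows, 0 of 4 chromatin rows and 2 of 8 kinase rows were positive, against 2490 of 5657 transcripts tested. So were 2 of 6 rows listed as cofactors, 1 of 5 rows of ubiquitin genes and 4 of 6 rows of light and cyclic AMP input. The phosphatase rows include 2 of Ppp1cc.

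Crtc1, a coactivator of the cyclic AMP response that in mouse brain takes part in induction of Per1 by light, had the lowest p of the list. It was read at 4.28, 3.66 and 3.56 FPKM in CSR, against 1.62, 1.5 and 1.99 FPKM in control, a mean of 3.83 ± 0.389 and 1.70 ± 0.254 FPKM (SD, n = 3 each). All CSR libraries lay above all control libraries, with a log2 fold change of 0.84 (standard error 0.17, 95% interval 0.42 to 1.26) that did not pass over all transcripts (adjusted p 0.185 by limma). Over the alternatives run, its adjusted p lay between 0.0613 and 0.998, with the highest value against control library 3 alone.

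Ciart, a repressor of CLOCK and BMAL1 also known as Chrono, was read at 4.06, 4.97 and 5.04 FPKM in CSR, against 2.34, 3.39 and 3.01 FPKM in control. All CSR libraries again lay above all control libraries. Its log2 fold change was 0.54 (standard error 0.18, 95% interval 0.11 to 0.98), and it did not pass (adjusted p 0.363 by limma). Its window, printed above, is the one with 3 E-boxes. Cul1, the scaffold of the ubiquitin ligases that mark PER and CRY proteins, was the third such gene, at 8.71, 8.86 and 10.6 FPKM in CSR and 6.88, 4.91 and 7.66 FPKM in control (log2 fold change 0.49, adjusted p 0.367 by limma). Other parts of these ligases were Skp1, with 68.7 ± 4.15 FPKM in CSR testes and 73.2 ± 1.46 FPKM in control testes, and Btrc, with 3.71 ± 1.47 FPKM in CSR testes and 3.62 ± 0.244 FPKM in control testes (SD, n = 3 each).

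**Figure D4:**
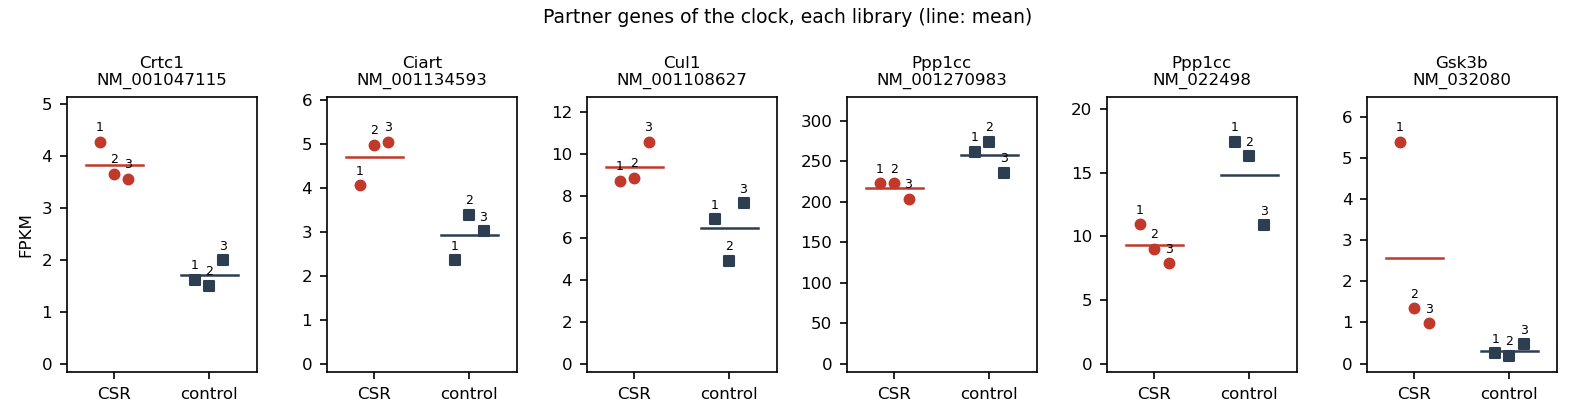
FPKM (y axis) of partner gene rows in each CSR library (red circles) and control library (dark squares), with library numbers beside the points and lines for group means. Crtc1, Ciart, Cul1 and Gsk3b have all CSR points above all control points, and Ppp1cc NM_001270983 has all CSR points below.

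Phosphatases and kinases set the stability of PER proteins. Ppp1cc, a catalytic subunit of protein phosphatase 1 that is abundant in testis, was read at 223, 223 and 204 FPKM in CSR and at 262, 274 and 236 FPKM in control for transcript NM_001270983, without overlap (log2 fold change -0.25, adjusted p 0.367 by limma). Its transcript NM_022498 was read at 11, 9.04 and 7.90 FPKM in CSR and at 17.4, 16.3 and 10.9 FPKM in control (log2 fold change -0.61, adjusted p 0.363), where CSR library 1 lay just above control library 3. Ppp1cb and Ppp5c, further phosphatase subunits, had log2 fold changes of -0.15 and -0.06. Among kinases, Csnk2b, the regulatory subunit of casein kinase 2, averaged 82.5 ± 6.48 FPKM in CSR testes and 72.9 ± 15.9 FPKM in control testes (NM_001035238), and Csnk2a2, a catalytic subunit, had 22.9 ± 0.398 FPKM in CSR testes and 23.2 ± 3.32 FPKM in control testes (SD, n = 3 each). Csnk1g2, a casein kinase 1 isoform, had log2 fold changes of -0.30 and -0.22 for its 2 transcripts. Gsk3b, a kinase of PER2, CRY2 and NR1D1, was named after its values were seen: it missed the filter, and was read at 5.39, 1.34 and 0.986 FPKM in CSR and 0.257, 0.190 and 0.463 FPKM in control (log2 fold change 1.25 and adjusted p 0.341 with no filter, by limma).

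Cofactors and chromatin regulators gave differences that did not pass. Ddx5, an RNA helicase found with PER complexes, was read at 247, 254 and 251 FPKM in CSR and at 262, 117 and 79.3 FPKM in control, where control library 1 was the highest of the 6 (adjusted p 0.388 by limma). Against control library 3 alone, its lowest library, Ddx5 was called (log2 fold change 1.65, adjusted p 0.0093 by limma). Hdac1, a histone deacetylase, averaged 31.7 ± 1.47 FPKM in CSR testes and 36.2 ± 0.553 FPKM in control testes, without overlap (adjusted p 0.378 by limma), and Hdac2, its close relative, averaged 16.0 ± 2.32 FPKM in CSR and 21.0 ± 2.94 FPKM in control (adjusted p 0.372, SD, n = 3 each). Kdm5a, a histone demethylase named after its values were seen, was read at 2.66, 2.12 and 1.82 FPKM in CSR and 4.03, 3.77 and 2.68 FPKM in control, without overlap (adjusted p 0.376 by limma). Parp1 and Wdr5, both without overlap and lower in CSR, had log2 fold changes of -0.13 and -0.39 (adjusted p 0.5 and 0.392 by limma). Crebbp, an acetyltransferase that works with CLOCK and BMAL1, ranged from 1.39 to 4.83 FPKM in CSR and from 0.887 to 5.81 FPKM in control. Of the cyclic AMP factors, Creb1 (NM_134443) averaged 6.81 ± 0.914 FPKM in CSR testes and 8.65 ± 2.26 FPKM in control testes (SD, n = 3 each), and the 2 Crem transcripts had log2 fold changes of 0.09 (NM_001271101) and -0.21 (NM_001110860).

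**Figure D5:**
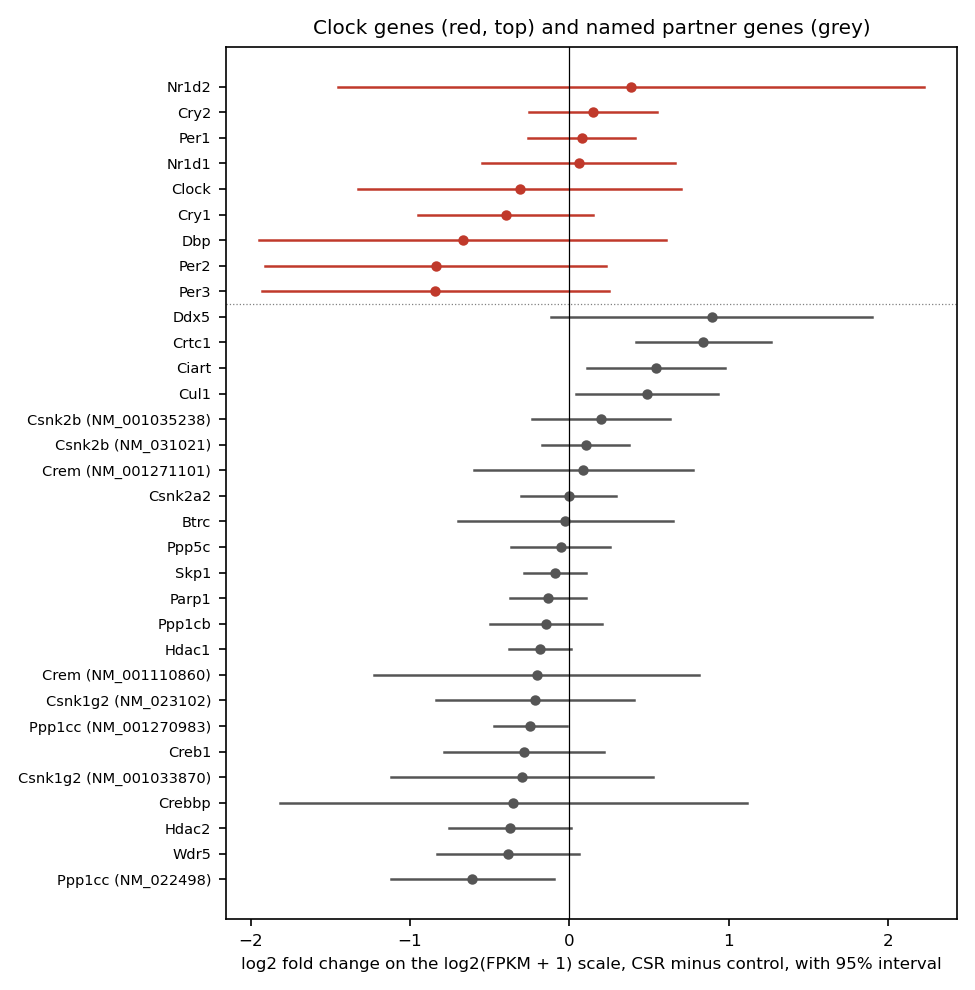
Log2 fold change on the log2(FPKM + 1) scale, CSR minus control (points), with 95% intervals from limma (bars), for the 9 clock gene rows tested (red, top) and the tested rows of the named partner genes (grey). All 9 red intervals include 0, and Crtc1 is the grey row whose interval lies farthest from 0.

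In whole testis, fewer cells of a type and less RNA per cell cannot be told apart. Of 14 elongating spermatid genes 12 were found, with summed levels of 20330 to 23730 FPKM in CSR and 12790 to 22370 FPKM in control. Prm1 and Prm2, near 0 in control libraries 1 and 2, are among these genes. Leydig cell markers (6 of 8 found) overlapped, at 71.9 to 121 FPKM in CSR and 70.5 to 92.3 in control. Sums of Sertoli cell markers (7 of 14 found) were 72.4 to 74.7 FPKM in CSR and 80.4 to 85.4 in control, but without Ctsl, a protease, they overlapped, at 39.5 to 44.4 FPKM in CSR and 40.3 to 45.5 in control. Sums of macrophage markers (5 of 9 found) were 7.68 to 11.2 FPKM in CSR and 11.9 to 16.2 in control, and without Lyz2, a lysozyme, 3.70 to 6.49 FPKM in CSR and 5.33 to 9.20 in control, with overlap. Ctsl and Lyz2 were left out after the marker rows were seen, and each had all CSR values below all control values. The overlap of the rest is therefore no independent check. Of 60 marker rows tested, limma called 2, against 25 of all 5657 transcripts tested, 0.442%. Both, Ccna1 and Col1a1, passed the filter only through the group where they were high, so neither call is used as support. Ccna1, the cyclin of spermatocytes, was higher in CSR, at 10.7, 5.59 and 6.06 FPKM against 0.875, 0.841 and 0.735 FPKM in control (adjusted p 0.0421). The spermatocyte list as a whole overlapped, with sums of 305.5 to 363.2 FPKM in CSR and 253.3 to 363.4 FPKM in control. In that list Pgk2, Ovol1 and Hspa2 also had all CSR values above all control values, and Hormad1 and Adam2 had all below. Col1a1, a collagen chain listed as a myoid marker, was listed at 0 in all CSR libraries, against 2.30, 2.14 and 2.73 FPKM in control (adjusted p 0.0421 by limma). Values of 0 were more frequent in CSR over the whole table, and their part in the Col1a1 values was not tested. The myoid list as a whole overlapped, with sums of 23.88 to 30.01 FPKM in CSR and 25.42 to 32.02 FPKM in control. Myh11 of that list was higher in all CSR libraries than in any control library. The part of these markers in the values of the clock and partner genes was not tested.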

How the data were processed

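RNA libraries of testis, 3 labelled CSR and 3 labelled control, were used. Per the labels' protocols, poly(A) RNA was sequenced, and the tools named in the submitters' processing notes are Trimmomatic, HISAT2 and StringTie, with build rn6 (versions and settings not given in the sources used here). The authors deposited FPKM values per RefSeq transcript, 7016 rows, and the columns were matched to libraries by the submitters' codes. Low values showed no steps of whole reads (at most 1.63% of rows under 1 FPKM shared a ratio between 2 libraries, compared to 3 decimals), so read depth is unknown. Of the rows, 6911 matched a symbol of the GRCr8 gene table.

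All rows that reached 1 FPKM in 3 or more libraries were fitted together with limma 3.58.1 (R 4.3.3) on log2(FPKM + 1) with a mean-variance trend, with Benjamini-Hochberg adjustment, a threshold of 0.05 and no block. The fit was tested on simulated data with independent normal values. These held neither the frequent values of 0 in CSR nor the split of control libraries 1 and 2, so the simulation cannot speak to those features. Named partner genes are those past the threshold, up to 3 per role with the highest mean, and those without overlap and a log2 fold change of at least 0.5 in size. The clock genes and lists were chosen with earlier results of these data known. No 2 libraries shared a value above 0 at any row, and all were kept as separate libraries. The methylation files were not used here, since no annotation of rn6 was at hand to place a CpG at a clock gene.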

Additional observations from a re-analysis of the deposited data

How the results depend on the processing

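No clock gene was called under any of 19 alternatives, which changed the pseudocount, filter, scaling, moderation, block or libraries; 2 of these were chosen after seeing the data. Among partner genes 1 was called under 1 of them, Ddx5, against control library 3 alone (log2 fold change 1.65). The lowest adjusted p of a clock gene was 0.116, for Dbp without CSR library 2. Refits of the 9 clock rows kept the sign in 146 of 155 cases. The count of 25 called transcripts became 11 with a pseudocount of 0.1, 16 with transcripts above 0 in all libraries, 77 without the trend, and 6 with control libraries 1 and 2 counted as 1, which was run because their codes are alike. Rescaling each library to a fixed larger sum gave 11. This also lowers the weight of the pseudocount, and with sums made equal at their mean the count was 24 and the median over all transcripts -0.15, against -0.06. The count ranged from 2 to 238 when 1 library was left out. With the replicate number as a block it was 0, with 715 unadjusted p under 0.05. Same-numbered libraries had deviation correlations of 0.0323, 0.00899 and 0.0418, and CSR library 2 correlated better with control library 1 (0.0345). Values this near 0 from so few libraries cannot settle whether the numbers pair the libraries.

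Signs turned with the larger fixed sum for Per1 (-0.027), Nr1d1 (-0.034) and Crem NM_001271101 (-0.0024), with sums equal at their mean for Per1 (-0.026) and Nr1d1 (-0.015), and with quantile normalization for Clock (0.17) and Crem NM_001110860 (0.32). They turned for Csnk2a2 with control libraries 1 and 2 as 1 (0.046), and against control library 3 alone for Per1 (-0.042), Csnk2a2 (0.20), Csnk1g2 NM_001033870 (0.15) and Csnk2b NM_031021 (-0.0011). The cause was not tested. With 1 library left out, log2 fold changes ranged from -0.052 to 0.14 for Per1, -0.12 to 0.24 for Nr1d1, -0.57 to 0.10 for Clock, -1.32 to -0.60 for Per2, -1.26 to -0.37 for Dbp, -0.57 to -0.28 for Cry1, -0.19 to 0.27 for Btrc, -0.11 to 0.090 for Csnk2a2, -0.53 to 0.024 and -0.38 to 0.036 for Csnk1g2, and -0.49 to 0.24 and -0.17 to 0.26 for Crem. Nr1d2 and Per3 missed the filter in 3 of these 6 refits. Read depth is unknown, so no counting interval can be given.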

Other observations

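Nr1d2 alternated between 0 and values above 1.8 FPKM, and the transcripts most like it were looked at after its values were seen. They were picked among the tested transcripts for the highest correlation over 6 libraries, so a shared split follows from the choice. The 3 transcripts most like Nr1d2 were Dync2i2 (correlation 0.993), Xpo1 (0.988) and Stom (0.973). Xpo1, the exportin that carries proteins out of the nucleus, was read at 1.92, 17.7 and 17.7 FPKM in CSR and at 1.44, 21.7 and 1.61 FPKM in control. Dync2i2, a subunit of the ciliary dynein, was read at 0, 15.6 and 12.9 FPKM in CSR and at 0, 19.3 and 0 FPKM in control. Stom, the membrane protein stomatin, was read at 4.24, 23.9 and 23.6 FPKM in CSR and at 2.28, 30.7 and 1.69 FPKM in control. In all 4 genes CSR libraries 2 and 3 and control library 2 were high, and CSR library 1 and control libraries 1 and 3 were low, a split that crosses both groups.

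Per2 and Dbp showed 0 in different CSR libraries. The transcripts most like Per2 were Rasd2, Slc25a3 and Otud7b, each at 0 in CSR libraries 1 and 2, and those most like Dbp were Mks1, Alg11 and Shisa3, each at 0 in CSR libraries 1 and 3. These transcripts too were picked for their correlation, so the shared zeros follow from the choice.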
